A study of Mus musculus with 72 samples.

Results

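Adult whole brain was set against adult whole liver in 3 inbred mouse strains on 18 Affymetrix expression arrays of 72 in the series. The arrays compared were those whose sample titles name P90 brain (9 arrays) or P90 liver (9 arrays). The groups were brain of DBA/2J (D2), brain of 129S2, brain of C57BL/6J (B6), liver of D2, liver of 129S2 and liver of B6, with 3 arrays in each. All animals were males of 11 to 14 weeks, and the P90 animals were purchased, whereas younger stages came from breeding. A whole organ holds many cell types, so fewer cells of a type and less RNA per cell cannot be told apart in any value given here. The labels do not say that replicates came from separate animals, and the p-values below measure only the spread between these arrays.

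Brain is built of neurons, which signal through synapses and voltage-gated channels, and of glia, among them oligodendrocytes that wrap axons in myelin and astrocytes that take up transmitters. Liver is built mainly of hepatocytes, which secrete most plasma proteins, make bile acids and urea, store and release glucose, and detoxify lipophilic compounds with cytochromes P450 and conjugating enzymes. Both organs share the machinery of every cell, such as ribosomes, proteasomes and mitochondria, and often use different forms of the same enzyme.

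The deposited values are log2 signals that the authors had normalized separately for each tissue and stage. Array medians were 6.41 to 6.45 in P90 brain and 5.03 to 5.08 in P90 liver as deposited. The 18 arrays were therefore quantile normalized together, which gives every array the same distribution, and a difference between tissues is given as a size with its SD over 3 strains and without a p-value. Each gene was represented by its brightest probe set, and 13581 of 18194 genes entered because at least 1 group mean exceeded the median of the normalized values (5.74). Counted genes are those with a difference of 2-fold or more, of 1 sign, in all 3 strains. Arrays correlated at 0.995 to 0.999 with their own group and at 0.657 to 0.665 with the other tissue. In a check of strain labels, each array's deviation from the other strains was set against that of its fellow arrays, over genes at least 2-fold apart. Brain replicate 2 of 129S2 stood apart with a slope of 0.62, against 0.93 to 1.04 for the other brain arrays and 0.86 to 1.01 for liver arrays. Without it the counts given next were 3124 and 3279.

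In brain, 3143 genes were higher than in liver in each strain (23.1% of genes that entered), and 3300 were higher in liver (24.3%), together 47.4%. These counts depend on how the separately normalized sets are brought together. With the values as deposited and the same probe sets, 6308 genes were counted toward brain and 1303 toward liver, so that brain made up 82.9% of the counted genes instead of 48.8%. The median of all genes was -0.20 log2 units (brain minus liver) after joint normalization and 1.01 as deposited. The 18 probe sets of spiked hybridisation controls had a median difference of -0.95 after joint normalization and of 0.06 (range -0.19 to 0.33) as deposited. The 24 poly-A control probe sets had medians of -2.19 after joint normalization and -0.94 (range -1.47 to -0.62) as deposited. Under all 5 scalings tried, 2739 genes lay toward brain and 1301 toward liver. Counted genes named below that were not counted under all 5 included Pltp, Mgst3, Hlf, Pfkl and Mt1 toward brain. Toward liver they included Shank1, C1qc, Rest, Cela2a, Ctrb1, Sdhd, Pklr, Sod1, Sod2, Ptbp1 and Ckm. Of the 6443 counted genes, 10 had brain and liver arrays that overlapped. Little overlap follows largely from the rule by which genes were counted, and the share over all genes was not computed. The median SD over strains of the counted genes was 0.13 log2 units.

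**Figure D1:**
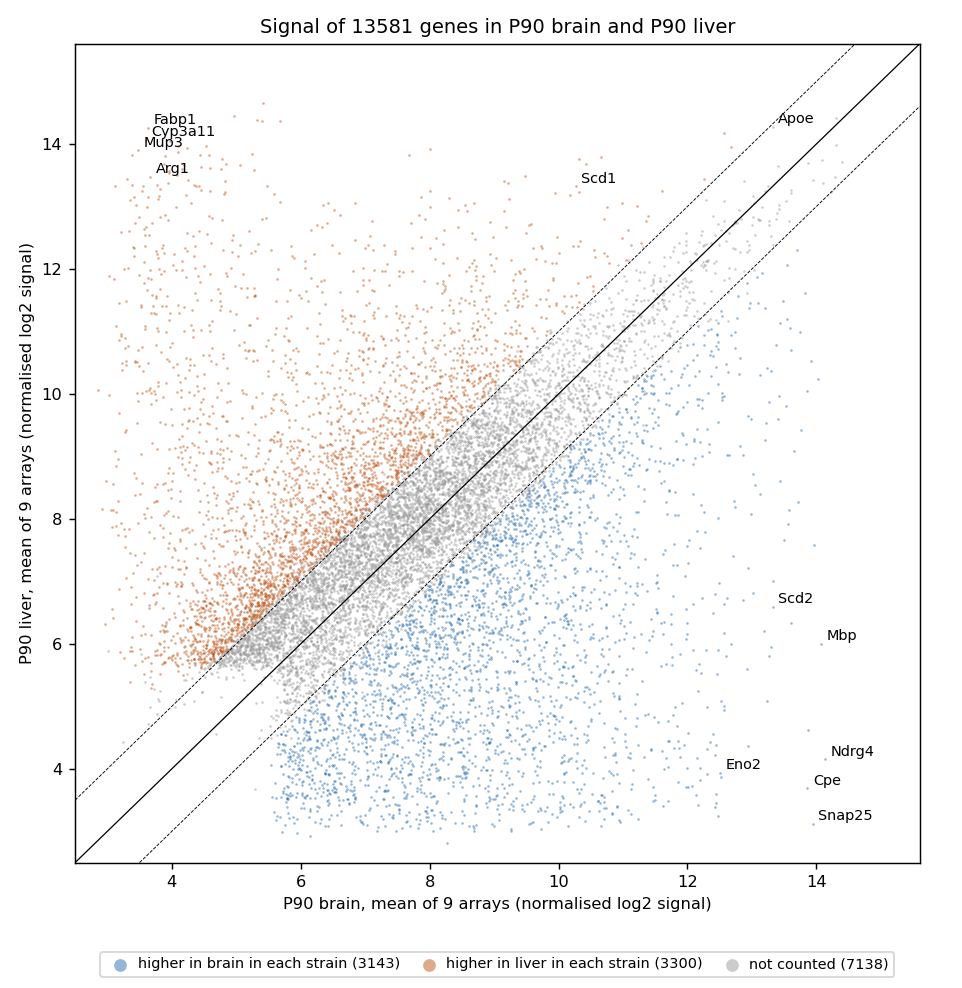
Each point is 1 of 13581 genes, placed by its mean over 9 P90 brain arrays (x axis, normalised log2 signal) and over 9 P90 liver arrays (y axis, normalised log2 signal). The solid line marks equal signal and the dashed lines 2-fold differences, with 3143 genes counted higher in brain and 3300 higher in liver.

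Large differences were common in both directions. In brain, 1871 genes were at least 4-fold higher in each strain, 679 at least 16-fold, 191 at least 64-fold and 24 at least 256-fold. In liver, 1422 genes were at least 4-fold higher, 529 at least 16-fold, 237 at least 64-fold and 93 at least 256-fold. In 1575 of the genes higher in brain the liver mean lay under the filter value, and in 1514 of those higher in liver the brain mean did. Where genes had other probe sets above the filter, at least 1 was counted in the same direction for 1289 of 1640 genes higher in brain (78.6%). For genes higher in liver this held for 963 of 1238 (77.8%). All other probe sets were counted in the same direction for 1005 (61.3%) and 811 (65.5%) of these genes. At least 1 was counted in the opposite direction for 56 and 41 genes.

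The largest difference toward brain belonged to Snap25, which encodes the membrane-bound protein of the complex that fuses synaptic vesicles. Snap25 ran from 13.89 through a median of 13.95 to 14.01 in the 9 brain arrays and from 2.92 through 3.13 to 3.40 in the 9 liver arrays. Its difference was 10.82 ± 0.05 log2 units (SD, n = 3 strains), and the only other probe set was also higher in brain, by 3.90. Cpe, carboxypeptidase E of peptide hormone processing, had brain arrays between 13.80 and 13.91 and liver arrays between 3.32 and 4.39, a difference of 10.17 ± 0.21. A second Cpe probe set above the filter differed by 0.29 and was not counted. Ndrg4, a neuronal member of the N-myc downstream-regulated family, followed with 9.99 ± 0.03 (brain median 14.13, liver median 4.13). The next 9 genes differed by 8.58 to 9.25 and held the neuronal membrane protein Gpm6a, the calcium sensor Hpcal4, the light neurofilament Nefl, the adhesion molecule Cntn1, the axonal motor Kif5c and the Rac-regulating chimaerin Chn1, besides Arpp21, Nap1l5 and Fam107a. In these 12 genes no brain array came within 7 log2 units of a liver array.

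At the liver end stood Fabp1, the fatty acid binding protein of hepatocytes. Fabp1 ran from 3.53 through 3.63 to 3.78 in brain and from 14.16 through 14.27 to 14.38 in liver, a difference of -10.63 ± 0.05. It was the lowest of all under 4 of the 5 scalings. With all 72 arrays normalized together Ugt2b5 (-10.26) and Pzp (-10.18) lay below Fabp1 (-10.09). Cyp3a11, a cytochrome P450 of drug metabolism, differed by -10.48 ± 0.06, the pregnancy zone protein gene Pzp by -10.44 ± 0.02 and the urinary pheromone carrier Mup3 by -10.43 ± 0.07. Members of the Mup, Ugt2b and Cyp families are close in sequence, so their probe sets may read several members. The other 8 genes of the 12 lowest differed by -9.79 to -10.21, among them the 3 fibrinogen chains Fga, Fgb and Fgg, the protease inhibitor Mug1, the urea cycle enzyme Arg1, the P450 Cyp2f2 and the glucuronosyltransferases Ugt2b5 and Ugt2b1. All liver arrays of these 12 genes lay at 13.14 to 14.38, and no brain array overlapped them.

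Promoter sequences were available from RefSeq (GRCm38.p6, 250 bases before to 50 after each annotated start) for 541 of the genes at least 16-fold higher in brain and 412 of those at least 16-fold higher in liver. The ratio of observed to expected CpG dinucleotides had a median of 0.59 over 770 promoters of the brain genes and 0.28 over 502 promoters of the liver genes, against 0.72 over 14029 promoters of all genes that entered. The TATA box letters TATAAA, searched on both strands, were present in 8.05% of the brain promoters and 19.1% of the liver promoters (8.10% of all). The 10-letter site of the hepatocyte factor HNF1 was present in 0 brain promoters and 2.99% of liver promoters (0.285% of all). For CAAAGTCCA, a site of HNF4, the shares were 0.26% in brain and 2.99% in liver (0.527% of all). The cAMP response element TGACGTCA was present in 2.86% of the brain promoters and 0.199% of the liver promoters (2.75% of all), and the GC box GGGCGG in 51.6% and 31.5% (58.7% of all). These are descriptions of letters, not of binding. The bases before the start are printed for 2 genes high in brain and 3 high in liver, chosen because they hold the TATA, HNF1, HNF4 or cAMP response letters, which stand in capitals on either strand. GC boxes are not marked. For Ndrg4 the window was itself picked for holding TATAAA, and for Kif5c for holding the cAMP response element. Any other annotated starts of these genes are not shown.
Ndrg4, chr8:95702806-95703055, plus strand: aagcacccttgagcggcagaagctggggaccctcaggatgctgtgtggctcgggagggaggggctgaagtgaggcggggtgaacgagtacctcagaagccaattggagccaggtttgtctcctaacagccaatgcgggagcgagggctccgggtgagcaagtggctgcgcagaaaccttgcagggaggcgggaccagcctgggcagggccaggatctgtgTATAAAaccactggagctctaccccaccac
Kif5c, chr2:49619036-49619285, plus strand: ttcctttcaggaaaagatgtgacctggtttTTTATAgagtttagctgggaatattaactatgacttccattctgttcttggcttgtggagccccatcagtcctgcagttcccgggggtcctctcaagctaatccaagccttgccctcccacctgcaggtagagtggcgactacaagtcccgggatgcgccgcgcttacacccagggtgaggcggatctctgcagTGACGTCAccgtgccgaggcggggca
Fabp1, chr6:71199629-71199878, plus strand: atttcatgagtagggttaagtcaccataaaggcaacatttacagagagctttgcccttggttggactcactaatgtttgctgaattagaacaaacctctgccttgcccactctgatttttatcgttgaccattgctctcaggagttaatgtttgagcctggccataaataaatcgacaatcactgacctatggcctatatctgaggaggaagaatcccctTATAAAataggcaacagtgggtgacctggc
Cyp3a11, chr5:145879855-145880104, minus strand: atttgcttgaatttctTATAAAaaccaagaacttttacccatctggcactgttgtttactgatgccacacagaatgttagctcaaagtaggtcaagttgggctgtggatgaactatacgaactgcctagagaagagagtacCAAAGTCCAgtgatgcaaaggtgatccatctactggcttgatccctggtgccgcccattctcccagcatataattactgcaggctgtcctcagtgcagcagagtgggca
G6pc, chr11:101367466-101367715, plus strand: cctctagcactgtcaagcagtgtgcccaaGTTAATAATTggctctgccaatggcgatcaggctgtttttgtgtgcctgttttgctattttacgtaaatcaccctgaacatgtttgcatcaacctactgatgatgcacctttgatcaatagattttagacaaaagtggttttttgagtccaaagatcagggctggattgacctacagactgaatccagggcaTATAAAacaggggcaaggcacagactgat
In the Ndrg4 and Fabp1 windows TATAAA lay at -30 to -25, and in G6pc, which encodes glucose-6-phosphatase, at -29 to -24. In Kif5c the cAMP response element lay at -26 to -19, and the capitals TTTATA mark a TATAAA on the other strand. The CpG ratio of the 300-base window was 0.38 for Ndrg4 and 0.56 for Kif5c, against 0.20 for Fabp1, 0.12 for Cyp3a11 and 0.25 for G6pc.

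Genes of synaptic transmission were higher in brain nearly without exception. All 22 measured genes of synaptic vesicles and release were counted higher in brain, with a median difference of 5.35 log2 units, against 23.1% of all genes and a median of -0.20. Syp, the vesicle membrane protein synaptophysin, had brain arrays between 11.47 and 11.87 and liver arrays between 4.60 and 4.88 (6.93 ± 0.11). A second Syp probe set above the filter differed by -0.48 and was not counted. Snap91, an adaptor of vesicle endocytosis, differed by 8.29 ± 0.05. Of 18 glutamate and GABA receptor genes 17 were higher in brain (median 4.78), led by the AMPA receptor subunit Gria2 at 8.18 ± 0.14, the metabotropic receptor Grm5 at 7.52 ± 0.01 and Gria1 at 7.28 ± 0.16. Of 16 postsynaptic genes 15 were higher in brain (median 3.76), with the calmodulin-binding protein Nrgn at 7.85 ± 0.16. The remaining one, the scaffold gene Shank1, was counted higher in liver at -1.29 ± 0.02, but its brain arrays lay at 4.86 to 5.07, under the filter value, and its difference was 0.02 as deposited.

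Channels, cytoskeleton and neuronal regulators followed the same direction. Of 17 voltage-gated channel genes 15 were higher in brain (median 5.17), with the calcium channel subunit Cacnb4 at 7.35 ± 0.07, the potassium channel Kcnd2 at 7.12 ± 0.14 and the sodium channel Scn2a at 6.70 ± 0.07. All 19 genes of the neuronal cytoskeleton and axonal transport were higher in brain, and their median of 6.13 was the highest of 39 lists. Map2, which binds dendritic microtubules, differed by 8.40 ± 0.06. Of 22 neuronal transcription and splicing factors 20 were higher in brain (median 5.01), led by the RNA-binding proteins Celf5 (7.55 ± 0.07), Elavl2 (7.48 ± 0.22) and Rbfox1 (7.41 ± 0.04). Rest, a repressor of neuronal genes in other tissues, was higher in liver, with 5.52 to 6.01 in brain arrays and 7.59 to 7.89 in liver arrays (-2.02 ± 0.09, and -0.66 as deposited).

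Neuropeptides and amine enzymes were less uniform, with 14 of 20 higher in brain and a median of 3.26. Cck, the precursor of cholecystokinin, differed by 8.22 ± 0.10, the tachykinin precursor Tac1 by 7.58 ± 0.18 and the enkephalin precursor Penk by 6.93 ± 0.05. Ddc, which decarboxylates the precursors of dopamine and serotonin, was higher in liver, with brain arrays at 6.85 to 8.50 and liver arrays at 10.02 to 11.34. Its difference of -3.41 ± 1.06 had one of the wider spreads over strains. Immediate early genes, which respond within minutes to activity, were counted toward brain in 14 of 19 cases (median 2.63), with Egr3 at 7.55 ± 0.39, Arc at 5.43 ± 0.43 and Fos at 5.16 ± 0.64. Fos ran from 9.75 to 11.35 over the brain arrays and from 5.13 to 6.24 over the liver arrays, a wider range than that of the synaptic genes in brain.

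Among glial genes, those of myelin stood highest. Of 16 genes of myelin and oligodendrocytes 13 were higher in brain (median 4.05). Mbp, myelin basic protein, had brain arrays between 14.01 and 14.22 and liver arrays between 5.94 and 6.05 (8.07 ± 0.10). Mobp, another myelin protein, differed by 8.38 ± 0.13 and the myelin claudin Cldn11 by 6.70 ± 0.10. Of 14 astrocyte genes 9 were higher in brain (median 3.89), led by the neurotensin receptor Ntsr2 at 5.80 ± 0.32 and the connexin Gjb6 at 5.36 ± 0.10. Aqp4, the water channel of astrocyte endfeet, differed by 4.81 ± 0.92, with liver arrays spread from 3.98 to 6.35. Aldh1l1, a folate enzyme used as an astrocyte marker, was the exception. It lay at 8.40 to 8.72 in brain arrays and at 12.84 to 13.04 in liver arrays, a difference of -4.35 ± 0.16.

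Macrophage and vessel genes did not divide cleanly between the organs. The shares of all genes, to set beside the counts here, were 23.1% higher in brain and 24.3% higher in liver. Of 11 microglial genes 2 were higher in brain, the fractalkine receptor Cx3cr1 (3.04 ± 0.09) and the purine receptor P2ry12 (3.68 ± 0.20), and 1 was higher in liver, the complement gene C1qc (-1.29 ± 0.09, and -0.10 as deposited). Csf1r, the receptor that maintains macrophages in both organs, lay at 10.74 to 10.95 in brain and 10.54 to 11.33 in liver, which overlap. The microglial list's median was -0.14 and turned to 0.86 as deposited, against -0.20 and 1.01 for all genes. Kupffer cells are the macrophages of liver, and 9 of their 12 genes were higher in liver (median -2.45), with the scavenger receptor family member Cd5l at -6.22 ± 0.35 and the complement receptor Vsig4 at -5.77 ± 0.37. Of 13 genes of brain endothelium 7 were higher in brain (median 1.23), led by the thyroxine carrier Slco1c1 at 5.70 ± 0.09, while the exporter Abcg2 was higher in liver at -3.61 ± 0.22. Of 16 genes of sinusoidal endothelium and stellate cells 15 were higher in liver (median -3.04), with the collectin Colec11 at -6.55 ± 0.14. The exception was Reln, a secreted protein of brain and of stellate cells, at 9.84 to 10.15 in brain and 9.80 to 10.40 in liver. Of 10 choroid plexus genes 4 lay toward brain and 2 toward liver, namely the tight junction gene Cldn2 (-4.74 ± 0.33) and the water channel Aqp1 (-4.62 ± 0.55).

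Genes of secreted plasma proteins lay far toward liver. Of 20 plasma carriers and protease inhibitors 18 were higher in liver (median -7.97), as were 15 of 15 coagulation genes (median -7.86) and 16 of 17 complement genes (median -7.49), against 24.3% of all genes. Alb, serum albumin, lay at 4.97 to 5.97 in brain arrays and held the top normalized value of 14.66 in all 9 liver arrays, so its difference of -9.25 ± 0.45 is set by the ceiling of the scale. C8a, a subunit of the membrane attack complex, differed by -9.31 ± 0.18 and the kininogen Kng1 by -9.72 ± 0.13. Of 22 genes of apolipoproteins and lipoprotein handling 16 were higher in liver (median -6.35), with Apoc3 at -9.77 ± 0.08, Apob at -9.33 ± 0.22 and Apoa2 at -9.05 ± 0.27. Apod, which glia express, was higher in brain by 4.75 ± 0.27, and the phospholipid transfer protein Pltp by 1.27 ± 0.23. Second probe sets of Apod and Pltp above the filter differed by 0.60 and 1.09 and were not counted. Apoe, made by hepatocytes and astrocytes, was high in both organs, at 13.26 to 13.36 in brain and 14.22 to 14.33 in liver (-0.95 ± 0.05), and was not counted.

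Detoxification and bile acid genes lay toward liver as well, with a few P450 and conjugating enzymes toward brain. Of 27 cytochrome P450 genes 22 were higher in liver (median -7.17), and Cyp2d9 and Cyp3a25 differed by -9.17 ± 0.08 and -9.74 ± 0.35. Cyp46a1, which hydroxylates cholesterol at position 24 in neurons, was higher in brain by 4.47 ± 0.34, and the arachidonate-related Cyp4x1 by 3.69 ± 0.11. Of 23 conjugating enzymes 19 were higher in liver (median -5.16). The 3 higher in brain were the brain sulfotransferase Sult4a1 (5.28 ± 0.10), the glutathione transferase Gstm5 (2.91 ± 0.23) and Mgst3 (1.81 ± 0.59). All 20 genes of bile acid synthesis and transport were higher in liver (median -6.14). Slc10a1, which takes bile acids up from blood, differed by -9.04 ± 0.22, the organic anion carrier Slco1b2 by -8.96 ± 0.23, and Slc27a5, which activates bile acids, by -8.84 ± 0.03.

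Nitrogen and carbohydrate metabolism showed the same direction. All 24 genes of amino acid catabolism were higher in liver (median -7.17), with the methyltransferase Bhmt at -9.68 ± 0.17, tryptophan dioxygenase Tdo2 at -9.43 ± 0.26 and Hpd of tyrosine breakdown at -9.38 ± 0.17. Of 10 urea cycle and ammonia genes 9 were higher in liver (median -5.21), with Otc at -9.38 ± 0.03 and Cps1 at -8.57 ± 0.04. Of 15 genes of gluconeogenesis and glycogen 11 were higher in liver (median -5.01). Fbp1, a key enzyme of gluconeogenesis, differed by -9.17 ± 0.10, and G6pc, whose promoter is printed above, by -8.20 ± 0.62. In G6pc the 9 liver arrays spread from 10.98 through 12.15 to 12.81, a wide range beside 3.69 to 3.90 in brain. Major urinary proteins and other male-predominant liver genes were higher in liver in 12 of 12 cases (median -6.78).

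Lipid pathways were mixed. Of 20 genes of fatty acid oxidation and ketogenesis 18 were higher in liver (median -3.56), with the peroxisomal enzymes Acaa1b at -9.47 ± 0.20 and Ehhadh at -6.81 ± 0.35. The 2 higher in brain were Oxct1, which lets tissues burn ketone bodies, at 5.02 ± 0.13, and the neuronal Cpt1c at 4.61 ± 0.13. Of 31 genes of cholesterol and fatty acid synthesis 19 were higher in liver, 2 in brain and 10 in neither (median -1.97). Elovl3, an elongase of very long chain fatty acids, differed by -8.55 ± 1.08, whereas Elovl4, another elongase, was higher in brain by 5.04 ± 0.21 and the desaturase Scd2 by 6.72 ± 0.55. Of 18 peroxisomal genes 13 were higher in liver (median -1.79), led by urate oxidase Uox at -8.94 ± 0.11, and the transporter Abcd2 was higher in brain by 1.90 ± 0.60. Of 22 hepatocyte transcription factors 21 were higher in liver (median -4.04), with the bile acid receptor Nr1h4 at -6.16 ± 0.14, Foxa3 at -6.08 ± 0.31 and Hnf4a at -5.69 ± 0.17.

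**Figure D2:**
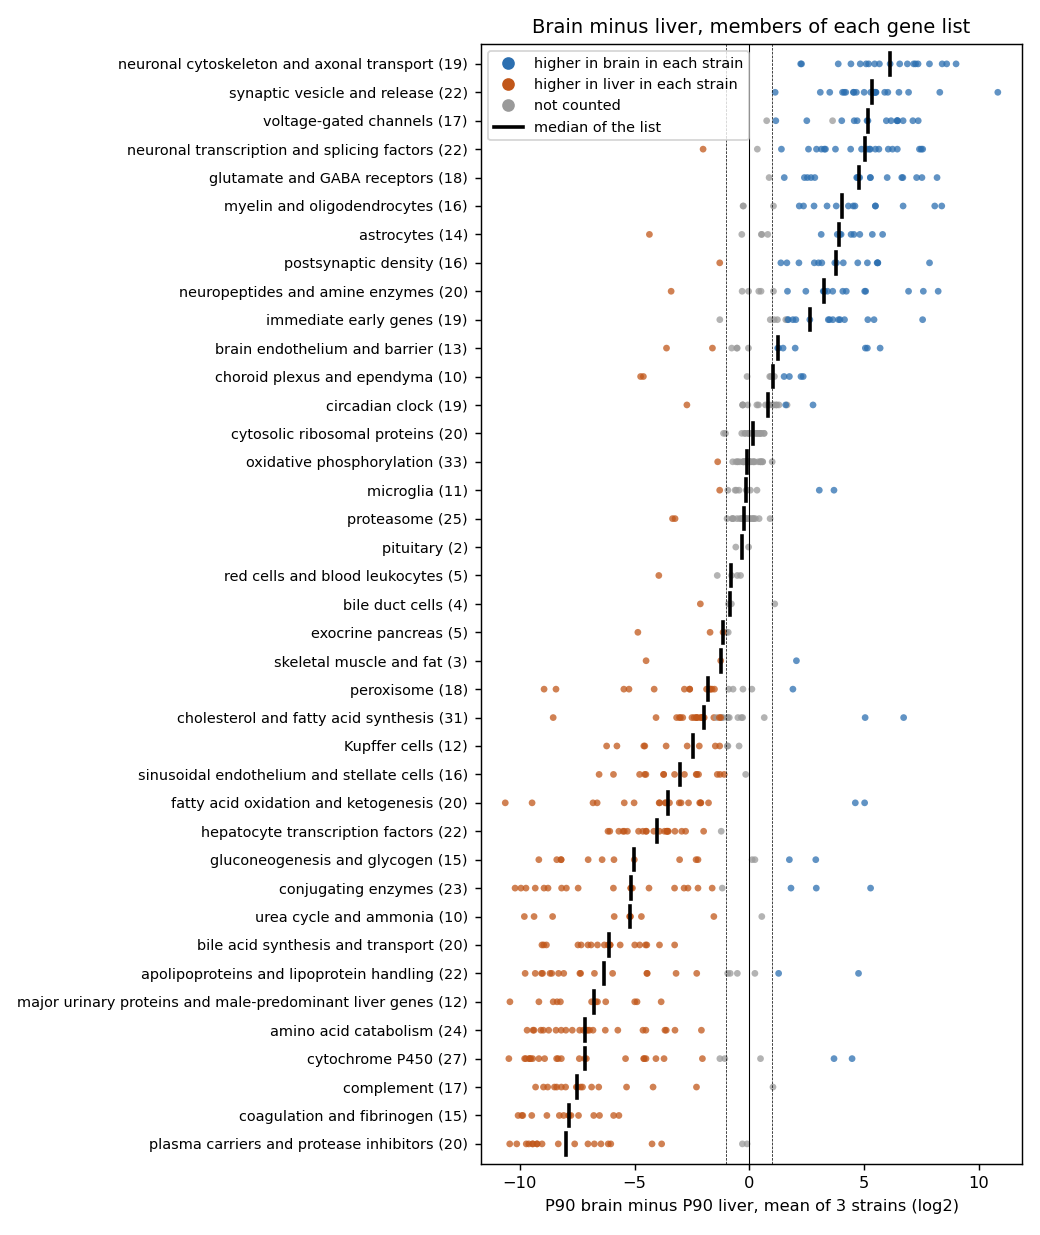
Each row is a gene list with the number of members that entered, each point a member's brain minus liver difference (x axis, log2, mean of 3 strains) and each black bar the list's median. Dashed lines mark 2-fold differences. Medians run from 6.13 for the neuronal cytoskeleton at the top to -7.97 for plasma carriers and protease inhibitors at the bottom, with ribosomal and respiratory genes near 0.

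Genes of shared machinery were close to equal after joint normalization. None of 20 cytosolic ribosomal protein genes was counted (median 0.17), 1 of 33 oxidative phosphorylation genes was (median -0.11), and 2 of 25 proteasome genes were (median -0.23). Of all genes that entered, 47.4% were counted. Sdhd, a subunit of succinate dehydrogenase, was the respiratory exception at -1.38 ± 0.14. The 2 proteasome genes were the immunoproteasome subunits Psmb8 and Psmb9, at -3.35 ± 0.45 and -3.24 ± 0.65. With arrays centred on their medians instead, these 3 list medians were -1.14, -1.21 and -1.02, and as deposited 0.23, 0.17 and 0.35, so no direction holds for them. Of 19 circadian clock genes 2 were higher in brain, the nuclear receptor Rorb (2.77 ± 0.04) and the transcription factor Hlf (1.58 ± 0.48), and 1 was higher in liver, Nfil3 (-2.72 ± 0.30). The shares of all genes were 23.1% higher in brain and 24.3% higher in liver.

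Markers of tissues that can adhere to either organ were also read. Of 10 exocrine pancreas genes on the array 5 entered and 3 were higher in liver. Cela1, an elastase, lay at 5.52 to 5.90 in brain and 9.74 to 11.46 in liver (-4.86 ± 0.79), Cela2a differed by -1.71 ± 0.36 (-0.68 as deposited) and Ctrb1 by -1.15 ± 0.03, which was 0.11 as deposited. The pancreas genes Cpa1 and Clps stayed under the filter in both organs. Of 13 blood genes 5 entered and 1, the haem synthesis gene Alas2, was higher in liver (-3.95 ± 0.27), with a mean of 6.40 in brain and 10.35 in liver. Of all genes that entered, 24.3% were higher in liver. The red cell genes Hba-a1 and Slc4a1 stayed under the filter in both organs, with means of 3.65 and 3.76 in brain and 3.61 and 4.29 in liver. The neutrophil gene S100a8 ranged from 4.16 to 7.48 over the liver arrays, with its 3 highest values in B6 liver, and the mean level of 3 neutrophil markers was 4.50 to 5.35 in brain arrays and 5.20 to 6.82 in liver arrays. The part of these cells in other differences was not tested. The tissue labels were checked against defining markers, with 7 of 7 neuronal markers counted higher in brain and 7 of 7 hepatocyte markers in liver.

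Many enzymes exist as one form known from brain or from most tissues and another known from liver, and 28 such pairs were examined, of which 19 had both members on the array with a unique gene name. In 12 of the 19 the first form was counted higher in brain and the second higher in liver, and in 19 of 19 the first form's difference was the more positive one. As deposited, and with arrays centred on the median or shifted to 1 75th percentile, it was so in 18, because Sod1 and Sod2 (-1.14 and -1.27 here, -0.94 and -0.71 as deposited) exchanged order. The glucose carriers were farthest apart within sugar metabolism. Slc2a3, the neuronal glucose transporter, lay at 11.14 to 11.36 in brain arrays and 4.09 to 4.82 in liver arrays (6.85 ± 0.21), and Slc2a2, the hepatocyte transporter, at 3.59 to 3.88 in brain arrays and 11.68 to 12.57 in liver arrays (-8.39 ± 0.41). Glycogen phosphorylase split into Pygb at 2.89 ± 0.06 and Pygl at -7.02 ± 0.19, and pyruvate kinase into Pkm at 5.61 ± 0.24 and Pklr at -2.32 ± 0.35. Among forms whose partner was not analysed here, the enolase Eno2 differed by 8.57 ± 0.14, hexokinase Hk1 by 4.74 ± 0.12 and aldolase Aldoc by 4.55 ± 0.20.

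Lipid and transport pairs showed a similar split. Fatty acid binding proteins gave Fabp7 at 2.69 ± 0.39 against Fabp1 at -10.63, stearoyl-CoA desaturases gave Scd2 at 6.72 against Scd1 at -3.05 ± 0.37, and carnitine palmitoyltransferases gave Cpt1c at 4.61 against Cpt1a at -3.63 ± 0.33. Carbonic anhydrase Car2, found in oligodendrocytes, differed by 4.72 ± 0.53 and Car3 by -8.62 ± 0.31. The astrocyte connexin Gja1 differed by 4.43 ± 0.23 and the hepatocyte connexin Gjb1 by -5.33 ± 0.09. Of sterol hydroxylases, Cyp46a1 was higher in brain and Cyp7a1, the rate-limiting enzyme of bile acid synthesis, higher in liver (-7.03 ± 0.47, with liver arrays from 9.52 to 11.82). The splicing repressors Ptbp2 and Ptbp1 differed by 2.57 ± 0.16 and -2.09 ± 0.15. Exceptions to the split were Adh5, Sod1 and Sod2, of which all were higher in liver, Pfkl, which was higher in brain at 1.40 ± 0.08, and Gys1, Acaca, Ldha and Arg2, which were not counted.

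**Figure D3:**
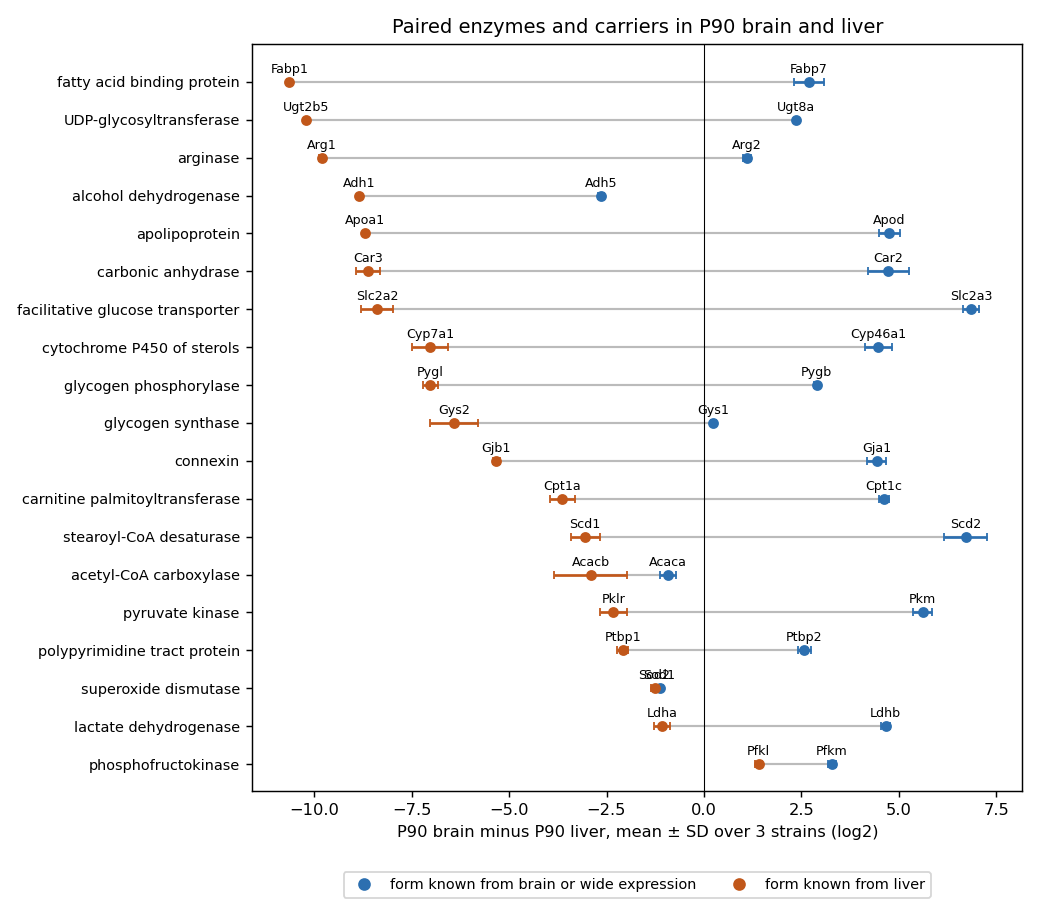
Brain minus liver difference (x axis, log2, mean ± SD over 3 strains) of the members of 19 pairs, with the form known from brain or wide expression in blue and the form known from liver in orange. The blue point lies right of the orange one in each pair, and Arg2 is drawn although it lay under the signal filter.

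The adult difference was then set beside that of younger stages, with the same probe sets and with the 18 arrays of each stage normalized together. At E14.5, 2272 genes were counted toward brain and 2292 toward liver. P1 gave 2633 and 2711 genes, P7 gave 2762 and 2933, and P90 gave the 3143 and 3300 named above. Of the genes counted at P90, 43.7% of the brain-higher ones (1375) and 31.0% of the liver-higher ones (1022) were counted in the same direction at all 4 stages. A further 736 brain-higher genes (23.4%) and 1066 liver-higher genes (32.3%) were counted at P90 and at no earlier stage. The stages differ in age and in the origin of the animals, which cannot be told apart here.

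Synaptic vesicle genes moved apart stepwise, with medians of 2.35, 3.15, 4.11 and 5.35 from E14.5 to P90. Myelin genes had medians of -0.14, 0.01 and 0.43 at the first 3 stages and 4.05 at P90, and immediate early genes 0.08, 0.25, 0.35 and 2.63. Mog, a myelin surface protein, differed by -0.07 at P7 and by 4.60 ± 0.38 at P90, and the potassium channel Kcna1 by 0.57 at P7 and 5.97 ± 0.15 at P90. On the liver side cytochromes P450 had medians of -0.67, -4.05, -5.75 and -7.17, whereas the urinary proteins and male-predominant genes had -0.49, -0.83 and -0.95 before -6.78 at P90. Mup3 differed by -0.86 at P7 and -10.43 at P90, and Elovl3 by -0.02 and -8.55. Plasma carriers were apart from the start, at -4.69 at E14.5. Kupffer cell genes had medians of -2.22, -2.72, -3.61 and -2.45.

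**Figure D4:**
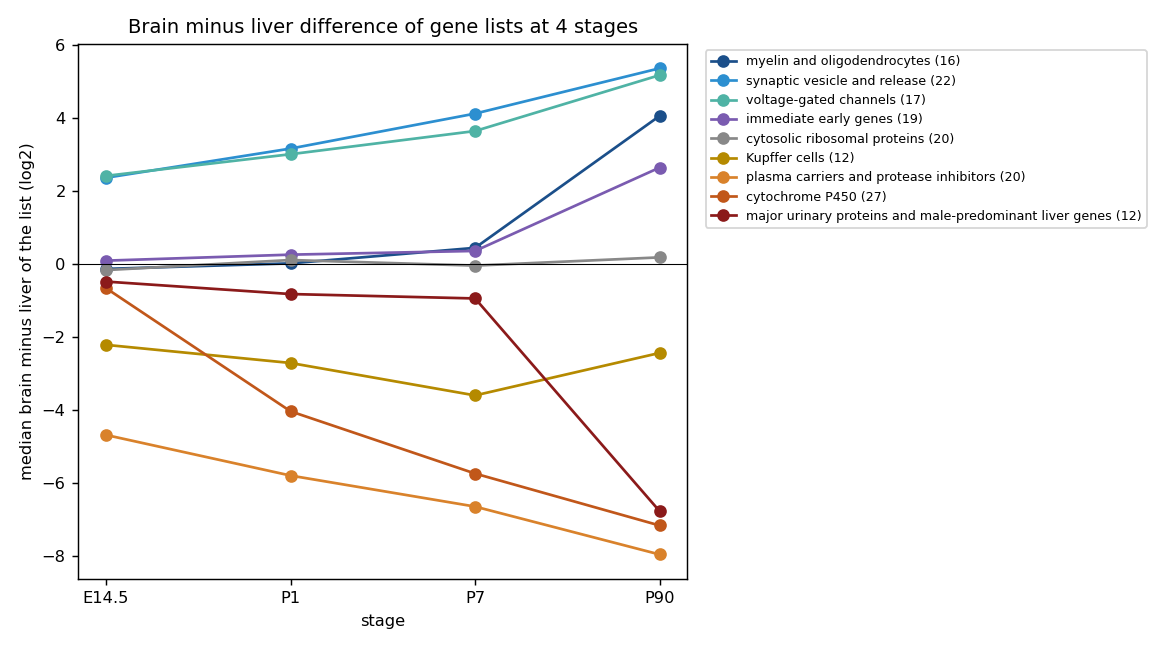
Median brain minus liver difference (y axis, log2) of 9 gene lists at E14.5, P1, P7 and P90 (x axis), with the number of genes in each list in the legend. Myelin genes and male-predominant liver genes stay within 1 log2 unit of 0 up to P7 and reach 4.05 and -6.78 at P90, and ribosomal genes stay near 0.

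The direction turned between P7 and P90 in 23 genes counted in opposite directions at these stages. Anln, a scaffold of dividing cells that myelinating cells also express, differed by -2.85 ± 0.06 at P7 and by 3.85 ± 0.17 at P90. Cyp7b1, an oxysterol hydroxylase, turned the other way, with 1.70 ± 0.34 at P7 and -4.99 ± 0.27 at P90, as did Scd1 with 1.79 ± 0.35 and -3.05 ± 0.37. Igf2, a fetal growth factor, differed by -2.61 ± 0.30 at P7 and 2.57 ± 0.13 at P90, and the metallothionein Mt1 by -2.56 ± 0.67 and 2.32 ± 0.81. Prom1, Stk26 and Abcd2 also turned toward brain, by 5.66, 5.53 and 4.77 log2 units. The values as deposited gave these 8 genes the same directions at P7 and at P90.

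Whether the tissue difference itself depended on strain was tested with limma, since strain differences lie within the separately normalized sets. The interaction compares such differences across sets. It was called for 1582 of 13581 genes (11.6%) at a Benjamini-Hochberg adjusted p below 0.05 (limma F test over 2 contrasts) and a largest difference between strains of at least 1.5-fold. Without the doubtful brain replicate 2 of 129S2 the count was 1674. Among the called genes the largest contrast was 129S2 minus B6 in 713, 129S2 minus D2 in 465 and D2 minus B6 in 404. Strains lay farther apart in liver than in brain in 1233 of the 1582 (77.9%), against 62.9% of all genes. The median range over the 3 strain means was 0.22 in brain and 0.75 in liver among called genes, and 0.14 and 0.19 among all. The interaction was called for 11.5% of brain-higher genes, 16.5% of liver-higher genes and 9.51% of the rest.

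In most of the 12 genes with the largest F values, leaving out 1 clone-like symbol, 1 strain stood apart in liver. Nlrp12, a regulator of inflammatory signalling, lay between 3.5 and 3.6 on average in brain of all strains and at 3.96 in D2 liver, 3.91 in 129S2 liver and 9.67 in B6 liver, so that the tissues differed by -0.45 in D2, -0.37 in 129S2 and -6.13 in B6. Corin, the protease that activates natriuretic peptide, averaged 3.32 in D2, 3.21 in 129S2 and 3.21 in B6 brain, and 7.04 in D2, 3.18 in 129S2 and 3.06 in B6 liver. D2 liver also stood out for Rassf4, a Ras-association protein, with 11.42 against 7.55 in 129S2 and 6.67 in B6 liver. For the thyroid hormone-binding Crym it averaged 7.49, against 4.57 in 129S2 and 4.34 in B6. Crym was higher in brain in each strain, by 1.38 in D2, 4.34 in 129S2 and 5.01 in B6.

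In 129S2 liver the P450 gene Cyp2c39 averaged 11.69, against 7.93 in D2 and 6.80 in B6, and Cyp2c37 averaged 8.39, against 11.55 in D2 and 11.44 in B6. These 2 genes lie in 1 family and were close to the bottom of the scale in brain, at 4.19 to 4.20 and 3.26 to 3.34. Cox6b2, known as a testis form of a cytochrome oxidase subunit, averaged 9.59 in 129S2 liver, against 5.96 in D2 and 5.54 in B6 liver. Myom2, a protein of the muscle sarcomere, averaged 8.28 in 129S2 liver, against 3.85 in D2 and 3.73 in B6. Of its 3 other probe sets, 2 gave 6.43 and 5.64 in 129S2 liver against 3.56 to 4.27 in the other strains, and the third 3.90 against 3.72 to 3.76.

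Only 2 of the 12 differed mainly in brain. Stab2, a scavenger receptor of liver sinusoids, averaged 7.78 in D2 brain, against 4.37 in 129S2 and 4.42 in B6 brain, and 9.16, 9.43 and 9.19 in D2, 129S2 and B6 liver. Scn2b, a sodium channel subunit, averaged 5.12 in 129S2 brain, against 11.49 in D2 and 11.43 in B6 brain, and 5.76, 5.77 and 5.64 in 129S2, D2 and B6 liver. A second Scn2b probe set did not show this. It averaged 11.24 in 129S2 brain, against 11.17 in D2 and 11.03 in B6 brain, and 3.28 to 3.41 in liver, so the strain difference of Scn2b belongs to 1 probe set.

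The direction of the tissue difference turned with strain in Mme and Fmn2, and in 4 genes in all at 2-fold in both directions. Mme, the peptidase neprilysin, was higher in brain in 129S2 by 2.57, within 2-fold in D2 at 0.58, and higher in liver in B6 at -2.13. In its other probe set the differences were 0.56 in 129S2, 0.05 in D2 and -1.60 in B6, which does not reach 2-fold toward brain in any strain. The means of the brighter probe set were 6.49, 6.29 and 6.03 in D2, 129S2 and B6 brain and 5.91, 3.73 and 8.15 in D2, 129S2 and B6 liver. Fmn2, a formin of actin assembly, differed by -1.45 in D2, -0.12 in 129S2 and 1.97 in B6, but its other 2 probe sets were not higher in liver in any strain. The remaining 2 of the 4, named here after their values were seen, were Moxd1, with -0.74 in D2, 2.48 in 129S2 and -2.90 in B6, and Mrap2, with -1.66, 1.48 and 0.98 in the same order.

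**Figure D5:**
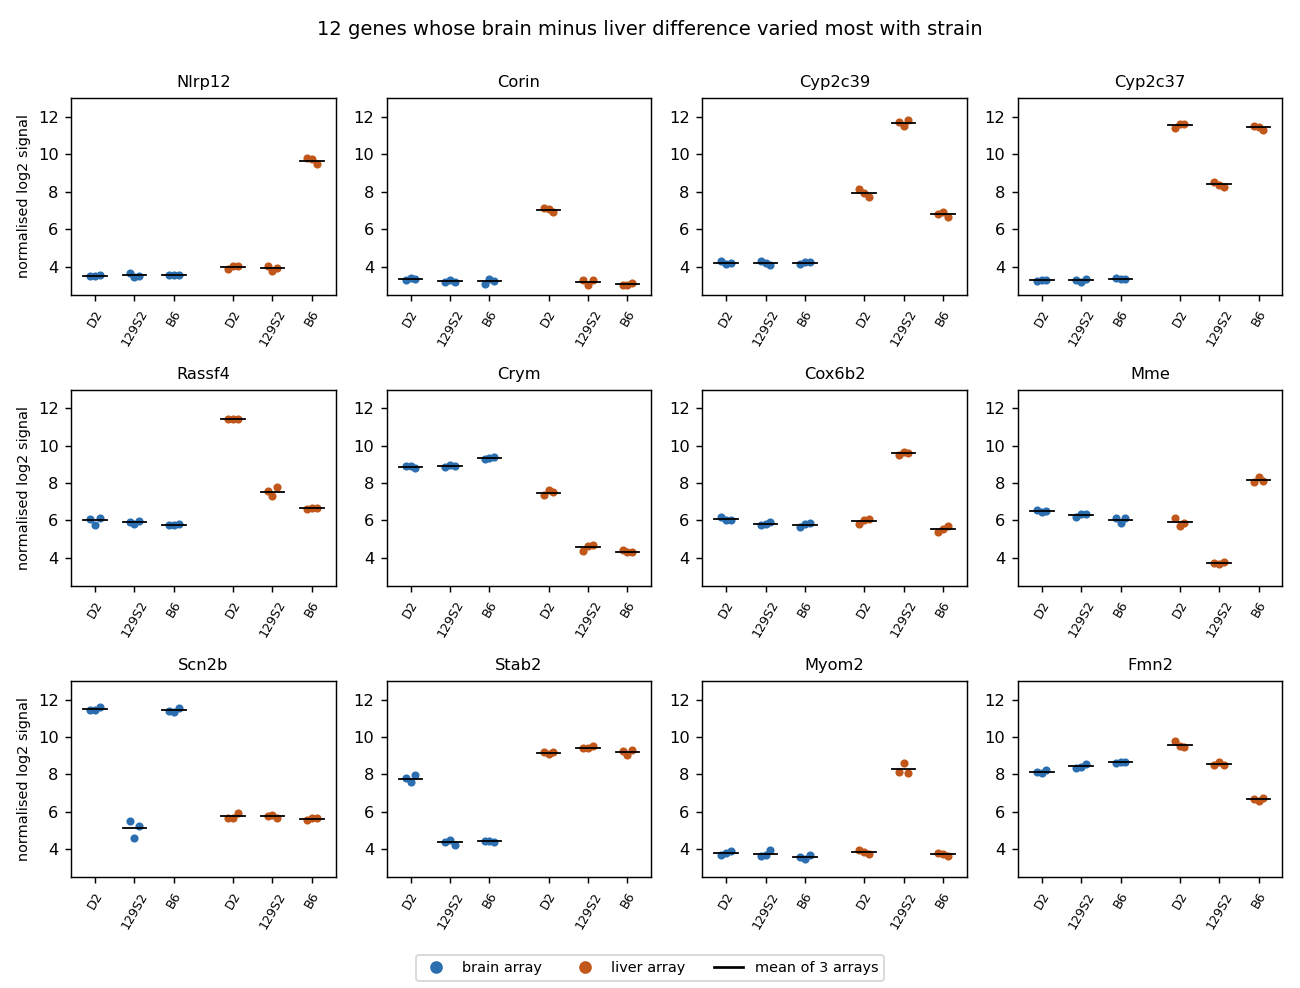
Normalised log2 signal (y axis) of each array for the 12 genes with the largest interaction F, leaving out 1 clone-like symbol. Brain arrays are in blue, liver arrays in orange and means of 3 arrays as black lines, for D2, 129S2 and B6 in each tissue. Strains separate in liver in 10 panels and in brain for Scn2b and Stab2.

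The same contrasts were read at younger stages. The 12 genes were chosen for their size at P90, so smaller values at other stages follow in part from that choice. At P7, Mme and Myom2 had the opposite sign. Stab2 gave -2.54 at E14.5, -2.10 at P1, -2.15 at P7 and -3.68 at P90. Rassf4 gave -3.21 at P1 and -3.10 at P7, against -4.54 at P90, and Cox6b2 -1.08, -2.33 and -3.998 at P1, P7 and P90. At E14.5 Rassf4 gave 0.38 and Cox6b2 0.30. Liver means of Cox6b2 were then 11.20 in D2, 10.80 in 129S2 and 10.99 in B6, and at P7 8.26, 11.00 and 8.69 in the same order. Cyp2c39 gave -0.92 at P7 and -4.89 at P90, Myom2 0.08 and -4.48, Fmn2 -0.50 and -3.42, and Mme -0.70 and 4.70.

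Calls for the interaction varied between gene lists, and the genes named next were chosen after their values were seen. Of 19 clock genes 13 were called (68.4%, against 11.6% of all genes), and 129S2 liver was the highest of the 3 livers in 11 of them. Dbp, a transcription factor driven by the clock, had 9.38, 9.59 and 9.38 in D2 brain, 10.59, 10.59 and 9.93 in 129S2 brain, and 10.25, 10.24 and 10.57 in B6 brain. In liver it had 7.39, 7.48 and 7.15 in D2, 11.80, 11.65 and 10.46 in 129S2, and 6.76, 7.16 and 5.89 in B6. The 129S2 livers lay above all D2 and B6 livers without overlap. Arntl, which encodes the clock activator BMAL1, ran the other way, with 6.27, 6.25 and 7.32 in 129S2 liver, against 8.75, 8.70 and 8.75 in D2 and 8.51, 8.30 and 8.54 in B6 liver. In both genes 129S2 liver replicate 3 lay closest to the other strains. The sample titles give no hour of collection, and its part in these calls was not tested.

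Of 31 genes of cholesterol and fatty acid synthesis 14 were called (45.2%, against 11.6% of all genes), and 129S2 liver was the lowest of the livers in 11. Over all 1582 called genes 129S2 liver was the lowest of the 3 in 41.2% and the highest in 34.1%, and B6 liver was the highest in 37.9%. Fasn, fatty acid synthase, averaged 10.14 in 129S2 liver, against 11.25 in D2 and 11.08 in B6 liver, with 9.94, 9.84 and 9.80 in 129S2, D2 and B6 brain. Of 27 P450 genes 12 were called (44.4%), 11 of them with the wider strain range in liver, against 77.9% of all called genes. Of 12 Kupffer cell genes 7 were called (58.3%), and B6 liver was the highest in 7 of 7. Marco, a macrophage scavenger receptor, had 7.54, 6.58 and 7.46 in B6 liver, against 5.95 to 6.33 in D2 and 5.98 to 6.03 in 129S2 liver. The neutrophil gene S100a8 was higher in the same livers, with 6.30, 5.26 and 7.48 in B6, against 4.16, 4.32 and 4.59 in D2 and 4.65, 4.76 and 4.76 in 129S2 liver. In both genes replicate 2 was the lowest B6 liver, and the part of such cells in the Kupffer cell calls was not tested. No member was called among 20 ribosomal, 33 oxidative phosphorylation, 15 coagulation and 10 urea cycle genes. In the same order, limma's F test gave raw p-values below 0.05 for 9, 10, 3 and 7 of them. Over all genes it gave such values for 5541 of 13581.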

How the data were processed

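Total RNA of whole brain and liver was taken up in TRIzol, cleaned on RNeasy columns and biotin-labelled, per the labels' protocols. The deposited values are log2 signals of 45101 probe sets made with RMA, per the submitters' processing notes; the version is not given in the sources used here. Of the values of an array pair, 2.51 to 4.35% were equal within a tissue at P90 and 0 between tissues, so each tissue had been normalized apart, and no test was made between tissues.

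The members and gene lists were chosen with earlier results of these data known. Samples were grouped by their titles. Of the probe sets, 34958 carried 1 gene symbol. The rule for named genes took the 12 highest and 12 lowest counted genes, the 3 largest counted members of each of 39 lists and those against their list's direction, members of all pairs, the 12 largest F values of the interaction and the 8 largest changes of sign since P7. Alb, Apoe, Csf1r, Reln, Cpa1, Clps, Hba-a1, Slc4a1, S100a8, Mog and Kcna1 were added after their values were seen. Clone-like symbols were not named. The interaction was fitted with limma 3.58.1 (lmFit with 6 group means, eBayes, Benjamini-Hochberg adjustment) in R 4.3.3, and the other steps ran in Python 3.11.15 with pandas 2.3.3. The programs were tested on simulated data. Promoter sequences came from RefSeq. Precision is limited by 3 arrays in each group. Alternatives were other scalings, filters, probe set choices and variance models, a replicate block and each array left out. Same-numbered arrays of both tissues did not deviate together (r from -0.059 to 0.012 over 9 pairs, against -0.043 to 0.064 over 18 other pairs). Without a pair known to share an animal, this cannot decide whether the numbers pair samples.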

Additional observations from a re-analysis of the deposited data

Results flagged for a closer look

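The tissue difference varied with strain in 12 named genes, by limma's F test of the interaction itself over 3 arrays in each of 6 groups. The largest contrast between 2 strains in brain minus liver (log2) was 5.75 for Nlrp12 (129S2 minus B6, adjusted p = 2.2e-15) and -6.42 for Scn2b (129S2 minus B6, adjusted p = 1.0e-12). It was -4.89 for Cyp2c39, -3.998 for Cox6b2 and 4.70 for Mme, each as 129S2 minus B6. As 129S2 minus D2 it was 3.16 for Cyp2c37, -3.68 for Stab2 and -4.48 for Myom2. As D2 minus B6 it was -3.87 for Corin, -4.54 for Rassf4, -3.64 for Crym and -3.42 for Fmn2. Adjusted p-values of the other 10 genes lay between those of Nlrp12 and of Fmn2 (3.1e-12). A second probe set of Scn2b gave brain minus liver differences of 7.75 in D2, 7.95 in 129S2 and 7.74 in B6, so its strain difference rests on 1 probe set. Nlrp12, Corin, Cyp2c39, Cyp2c37, Crym, Cox6b2 and Stab2 had no second probe set to set beside the first. The other probe sets of Fmn2 were divided. In D2, 129S2 and B6, 1 gave 0.05, 1.42 and 3.49, and the other gave 3.17, 2.74 and 3.67.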

How the results depend on the processing

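As deposited, with the filter recomputed, 6735 genes lay toward brain and 1292 toward liver. A 4-fold minimum in each strain gave 1871 and 1422, and all probe sets taken one by one 6800 and 6416. Without a fold minimum the interaction was called for 3921 genes. As deposited, the median of exocrine pancreas genes turned to 0.42, that of skeletal muscle and fat to 0.14, Shank1 to 0.0174, Ctrb1 to 0.11 and Ckm to 0.14. The choroid plexus median turned to -4.62 with the filter at the 75th percentile, and Kl, counted higher in brain, to -0.56 with the probe set brightest over 72 arrays. Leaving out each array in turn gave 3124 to 3157 genes higher in brain, 3275 to 3323 higher in liver and 1534 to 1674 interaction calls, and the first form of the pairs was the more positive in 19 of 19, against 18 under 3 other scalings. With a replicate block the interaction was called for 1565 genes. The other counts, 137 values in all, stayed within 1.5 times. The 12 interaction genes stayed called with the same sign in all 323 values from settings in which they entered. Corin, with a highest group mean of 7.04, did not enter with the filter at the 75th percentile (7.62). Of named genes, 808 of 4472 values moved by more than their spread without a change of sign. The cause of these changes was not tested.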
